A study of Mus musculus with 57 samples.

Results

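Cytochrome P450 (CYP) genes of families 1 to 4 were described in RNA-seq of mouse whole liver, liver macrophages and blood monocytes. The genes were chosen by symbol, as Cyp followed by a family number from 1 to 4, a subfamily letter and a gene number, and the transcript with the highest total count stood for each symbol. This gave 75 genes, with 96 transcripts, of the 24941 genes and 40458 transcripts in the deposited tables. Symbols that end in a letter, such as those of Cyp4a12a and Cyp3a41a, lie outside the rule. The series holds 57 libraries, and the 22 whole livers are the main material here.

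The whole livers came from mice fed CDAHFD, a choline-deficient, amino acid-defined high-fat diet that gives steatohepatitis (NASH), for 4 weeks. 12 were Clec4f-Cre DTR positive and 10 were Clec4f-Cre DTR negative, where DTR is the diphtheria toxin receptor and Clec4f drives Cre in Kupffer cells, macrophages that reside in the liver sinusoids. The labels do not say whether toxin was given, and no whole liver of a mouse on control diet was among the libraries. The sorted cells of strain C57BL/6J formed a population set and a time course. In the population set, 2 libraries each held CD11b-Hi Ly6C-Lo recruited macrophages, CD11b-Hi Ly6C-Hi recruited macrophages, F4/80-Hi Tim4-Neg recruited macrophages of the Kupffer niche, F4/80-Hi Tim4-Pos Kupffer cells of mice on a NASH diet, Ly6C-Hi blood monocytes of mice on that diet, and Kupffer cells of mice on control diet. The labels do not give the weeks on diet for the population set. The time course held Kupffer cells at 0 weeks on the NASH diet (control diet, 3 libraries) and at 1 week (2), 4 weeks (2), 10 weeks (3), 20 weeks (3) and 30 weeks (4). In the last set the LXR alpha and LXR beta genes were floxed, and Tim4-Neg recruited macrophages were sorted after 20 weeks on the NASH diet from 3 Clec4f-Cre positive and 3 Cre negative samples. The labels give no age, and they number the replicates without saying that each is a separate animal, so every p-value rests on the spread of these libraries, which may be technical.

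CYP enzymes are heme proteins of the endoplasmic reticulum that insert oxygen into lipids, steroids, drugs and toxicants, with electrons passed on by P450 oxidoreductase (Por) and cytochrome b5. Most members of families 1 to 3 are best known for xenobiotic and steroid oxidation in hepatocytes. Many are induced through AhR or through the nuclear receptors CAR (Nr1i3) and PXR (Nr1i2). Family 4 acts mainly on the ends of fatty acids and eicosanoids, and Cyp4a10 and Cyp4a14 are standard targets of the fatty acid receptor PPAR alpha. The enzymes are zoned in the liver lobule, with Cyp2e1 and Cyp1a2 around the central vein and Cyp2f2 around the portal vein.

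The members lie in clusters of related genes. The 2c subfamily had 15 members, 2d and 4f had 9 each, 2j and 3a had 7 each, 2b and 4a had 5 each, 2a had 4 and 1a had 2. Chromosomes 7 and 19 held 15 members each, chromosome 4 held 14, chromosomes 15 and 17 held 9 each and chromosome 5 held 8. Of the 74 members with a reference transcript sequence, 32 shared over 10% of their 50-base stretches with another gene's transcript. In such pairs reads may be split between copies, so values of Cyp2a5 (40.8% shared, mostly with Cyp2a4), Cyp4a10 (30.5%, Cyp4a32), Cyp2d9 (29%), Cyp4f16 (26.5%, mostly Cyp4f37) and Cyp2b9 (11.2%) are uncertain. Cyp2e1 shared 4.76% and Cyp4f18 0.423%.

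The table of RefSeq promoters (build GRCm38.p6) held a window for 62 of the 75 members, from 250 bases before to 50 bases after the start. The letters TATAAA, searched on both strands, were in 26 of the 62 (41.9%), against 14.2% of all 27025 promoters. GCGTG, the core of the AhR element, was in 13 of the 62 (21.0%), against 32.5% of all. The 250 bases upstream of the start are shown, 5′ to 3′ on the gene's strand, for Cyp2e1, the most abundant member in liver, Cyp1a2, the main family 1 member there, Cyp4f18, the member with the highest mean TPM in recruited macrophages and blood monocytes, and Cyp2s1, whose level was higher in Ly6C-Lo macrophages than in the other sorted groups. Capitals mark TATAAA.
Cyp2e1: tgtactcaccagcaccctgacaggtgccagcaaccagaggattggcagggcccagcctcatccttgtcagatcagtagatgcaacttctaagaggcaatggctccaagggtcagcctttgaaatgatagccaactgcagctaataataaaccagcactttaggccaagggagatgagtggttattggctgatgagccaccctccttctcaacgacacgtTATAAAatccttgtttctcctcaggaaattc
Cyp1a2: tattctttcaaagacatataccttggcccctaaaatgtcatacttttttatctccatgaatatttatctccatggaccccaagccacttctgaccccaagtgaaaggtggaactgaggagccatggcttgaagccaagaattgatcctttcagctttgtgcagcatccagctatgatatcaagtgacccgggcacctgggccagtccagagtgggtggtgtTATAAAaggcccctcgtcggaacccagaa
Cyp4f18: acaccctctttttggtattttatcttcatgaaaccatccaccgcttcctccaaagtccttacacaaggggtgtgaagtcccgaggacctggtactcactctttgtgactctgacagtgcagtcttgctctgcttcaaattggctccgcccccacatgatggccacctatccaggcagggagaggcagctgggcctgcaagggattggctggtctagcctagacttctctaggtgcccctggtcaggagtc
Cyp2s1: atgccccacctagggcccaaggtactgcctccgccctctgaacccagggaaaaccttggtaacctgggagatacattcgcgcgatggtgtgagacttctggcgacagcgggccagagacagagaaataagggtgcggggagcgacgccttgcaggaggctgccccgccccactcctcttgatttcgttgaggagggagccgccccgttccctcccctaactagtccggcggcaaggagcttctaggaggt
The windows are chr7:140763569-140763818 (plus strand), chr9:57683656-57683905 (minus), chr8:72009627-72009876 (minus) and chr7:25816526-25816775 (minus), in that order. TATAAA began 31 bases before the start in Cyp2e1 and 29 bases before it in Cyp1a2, and the windows of Cyp4f18 and Cyp2s1 did not hold these letters. A match describes the letters only, and RefSeq starts can differ by some bases from the transcripts counted here.

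Whole liver libraries held 5.39 to 9.94 M counts over genes, and sorted libraries 2.32 to 27.0 M, with M for 1e6. Members took 1.73 to 3.25% of the counts in DTR positive livers and 1.97 to 3.25% in DTR negative livers, against 0.023 to 0.159% in sorted cells. Ddx3y, a Y-linked gene, had 10.1 to 19.1 TPM (a level scaled by transcript length and library size) and Xist at most 0.082 TPM in the 22 livers. 4 livers stood apart: DTR positive replicates 1, 2 and 7 and DTR negative replicate 2 had Col1a1, a fibrillar collagen gene of fibrosis, at 10.8, 8.61, 11.3 and 8.27 TPM, against 29 to 88 TPM in the other 18. The same 4 livers had the highest albumin (Alb) mRNA, at 58816 to 68949 TPM, and the next liver had 48159 TPM. Markers of Kupffer cells (6 of 6 detected) summed to 113 to 313 TPM in DTR positive livers and 165 to 448 TPM in DTR negative livers, so these ranges overlapped. In bulk samples fewer cells of a type and less RNA per cell cannot be told apart.

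A few members made up most of the P450 message of these livers. By mean TPM over the 22 livers, 3 members were at 1000 or more, 13 between 100 and 1000, 21 between 10 and 100, 10 between 1 and 10, 22 below 1, and 6 had 0 counts (Cyp2b23, Cyp2j11, Cyp2j12, Cyp2c66, Cyp2w1 and Cyp4x1). The highest member took a median of 32.7% of the summed member TPM of a liver, the highest 3 took 65.3% and the highest 10 took 88.1%. Between 55 and 61 members had a count in a DTR positive liver and between 57 and 62 in a DTR negative liver.

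**Figure D1:**
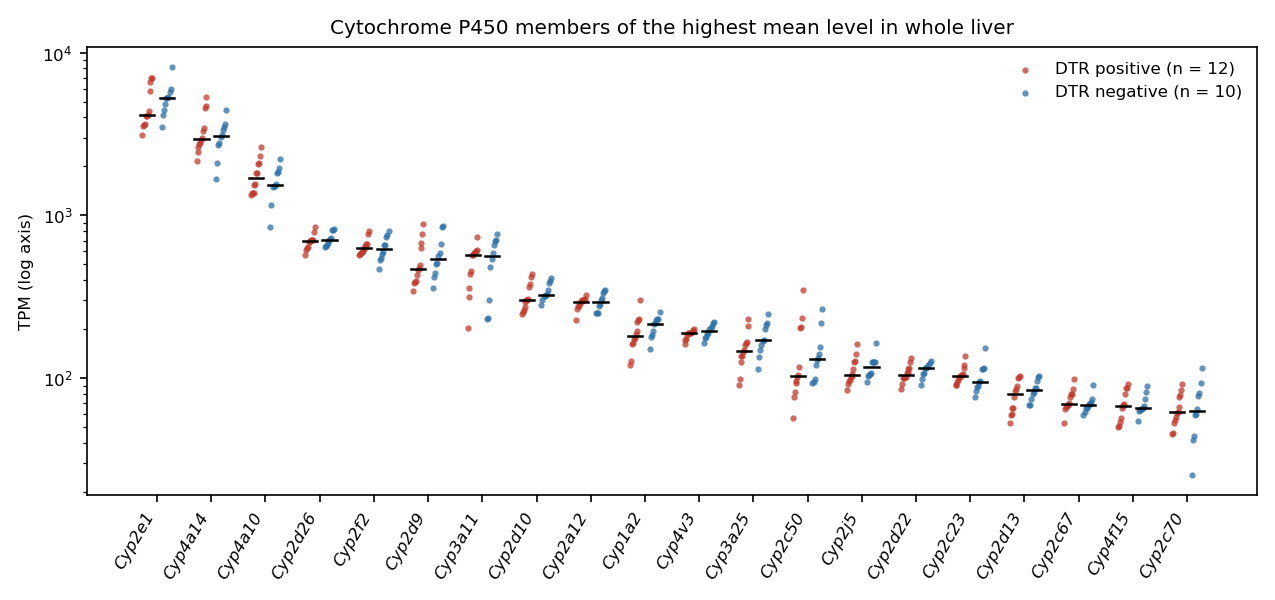
TPM (log scale) of the 20 members with the highest mean level, 1 point per liver, DTR positive livers beside DTR negative livers. Cyp2e1 runs from 3105 to 8126 TPM and the points of both groups overlap for every gene shown.

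Cyp2e1, which oxidises ethanol and small solvents and lies at chr7:140763832-140774977 (plus strand, mm10), was the most abundant member. It had 3105, 4113 and 7037 TPM (lowest, median and highest) in the 12 DTR positive livers, against 3508, 5270 and 8126 TPM in the 10 DTR negative livers. The 4 livers with low Col1a1 had 6636 to 8126 TPM, above the next liver at 6025 TPM. The fatty acid omega-hydroxylases followed. Cyp4a14 (chr4:115486200-115496141, minus strand) had 2149, 2956 and 5338 TPM in DTR positive livers, against 1680, 3069 and 4426 TPM in DTR negative livers. Its neighbour Cyp4a10 (chr4:115518287-115533649, plus strand) had 1334, 1689 and 2626 TPM in DTR positive livers, against 852, 1534 and 2224 TPM in DTR negative livers. The ranges of both groups overlapped for all 3 genes.

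Below these came enzymes of xenobiotic, steroid and bile acid oxidation. Cyp2d26 averaged 706 TPM (570 to 853) over the 22 livers, and Cyp2f2, which activates naphthalene, averaged 640 TPM (469 to 803). Cyp2d9, a male-biased testosterone 16-alpha-hydroxylase, averaged 549 TPM (341 to 891). Cyp3a11, a PXR target that oxidises many drugs, averaged 512 TPM (203 to 772), and the 4 livers with low Col1a1 lay at 203 to 455 TPM. Cyp2a12, a bile acid hydroxylase, averaged 292 TPM (229 to 347), and Cyp2c70, which makes mouse muricholic acids, averaged 65.4 TPM (25.4 to 115). Cyp1a2 averaged 199 TPM (121 to 303), while its relative Cyp1a1 averaged 0.228 TPM. Cyp4v3, the ortholog of the human fatty acid hydroxylase CYP4V2, averaged 190 TPM (161 to 221). The arachidonic acid epoxygenases Cyp2j5 and Cyp2c23 averaged 115 and 104 TPM. The other members of the highest 20 were Cyp2d10, Cyp3a25, Cyp2c50, Cyp2d22, Cyp2d13, Cyp2c67 and Cyp4f15, between 69 and 329 TPM on average.

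Members varied more between livers than genes in general. The median coefficient of variation over the 22 livers was 19.3% for the 37 members at 10 TPM or more, beside 13.7% for all 5888 genes at that level. Cyp2b9, a female-biased member, ran from 2.20 to 77.6 TPM, a 35.2-fold range, and its lowest liver still held 22 counts. Cyp2c54 ran from 5.92 to 147 TPM (24.8-fold), Cyp2c29, a CAR target, from 7.14 to 144 TPM (20.2-fold) and Cyp2c37 from 11.3 to 176 TPM (15.5-fold). The 4 livers with low Col1a1 had 86.8 to 144 TPM of Cyp2c29, above the next liver at 73.9 TPM. At the other end, Cyp4f13 stayed between 31.5 and 39.2 TPM, Cyp4v3 between 161 and 221 TPM and Cyp2d26 between 570 and 853 TPM.

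The DTR comparison sets livers of mice whose Kupffer cells carry the toxin receptor against livers of DTR negative mice. No member passed the test: 0 of the 47 members tested had an adjusted p under 0.05 by edgeR's quasi-likelihood test with Benjamini-Hochberg adjustment, as did 0 of all 12682 genes (0%). At an unadjusted p under 0.05 there were 2 members and 477 genes, 3.76% of those tested. DESeq2 and limma on log2(TPM + 1) also called 0 members. The median log2 fold change of the 47 members, DTR positive over DTR negative, was -0.00, beside 0.00 for all genes. Cyp2e1 averaged 4747 ± 1444 TPM in DTR positive livers (SD, n = 12) and 5268 ± 1259 TPM in DTR negative livers (n = 10), with a log2 fold change of -0.15 ± 0.22 (SE). Cyp4a14 averaged 3342 ± 1005 TPM in DTR positive livers and 3026 ± 779 TPM in DTR negative livers (0.15 ± 0.22). Cyp4a10 averaged 1775 ± 429 TPM in DTR positive livers and 1596 ± 397 TPM in DTR negative livers (0.15 ± 0.20). These differences were smaller than the spread between livers, and without the 4 livers with low Col1a1 those of Cyp4a14 and Cyp4a10 turned to -0.12 and -0.05.

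The 2 members at an unadjusted p under 0.05 are named after their values were seen. Cyp2a5, the mouse coumarin hydroxylase (chr7:26835339-26843264, plus strand), had 33.9, 44.6 and 96.6 TPM in DTR positive livers, against 41.5, 67.6 and 165 TPM in DTR negative livers. Its log2 fold change was -0.64 ± 0.23 (edgeR, p = 0.0113, adjusted p = 0.9998). Cyp4b1, better known from lung (chr4:115624728-115647705, minus strand), had 9.65, 13.1 and 22 TPM in DTR positive livers, against 7.51, 11.8 and 14.4 TPM in DTR negative livers (0.36 ± 0.17, p = 0.0393, adjusted p = 0.9998). Both genes overlapped between the groups. By role, 0 of 2 tested AhR-inducible members, 0 of 10 tested CAR- or PXR-inducible members, 0 of 4 PPAR alpha targets, 0 of 8 arachidonic acid enzymes, 0 of 3 tested sex-biased members and 0 of 4 tested extrahepatic members were called. Markers of endothelium were higher on average in DTR positive livers for 6 of 6 genes (132 TPM summed, against 106 TPM in DTR negative livers), and their part in these values was not tested.

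The partners of the P450 system did not pass the test either. Of 31 electron donors, heme synthesis genes and regulators, 29 were tested and edgeR called 0, with 2 at an unadjusted p under 0.05 and 0 called by DESeq2 or limma. Por averaged 212 ± 58.2 TPM in DTR positive livers (SD, n = 12) and 191 ± 54.8 TPM in DTR negative livers (n = 10). The 3 with the smallest p were Cyb5b, an outer mitochondrial membrane cytochrome b5, at 66.4 TPM in DTR positive livers and 72 TPM in DTR negative livers (log2 -0.15 ± 0.06, p = 0.0115); Nr1i2, encoding PXR, at 39.5 TPM in DTR positive livers and 44 TPM in DTR negative livers (-0.20 ± 0.09, p = 0.0284); and Fech, the last enzyme of heme synthesis, at 63.3 TPM in DTR positive livers and 67.7 TPM in DTR negative livers (-0.12 ± 0.06, p = 0.0584). Each had an adjusted p of 0.9998.

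Pairs of members followed each other across livers, and some fell where Col1a1 was high. 16 relations were computed on log2(CPM + 1), where CPM scales counts to library size, with permutation p-values from 100000 resamples adjusted over the 16, and 6 passed an adjusted p of 0.05. The points share tissue, library and scaling, so these are relations between livers and not between cells. Each was also computed for the 18 livers without the 4 of low Col1a1, a choice made after the values were seen. Cyp4a10 and Cyp4a14 had Pearson's r of 0.967 over the 22 livers (adjusted permutation p = 8e-05; the unadjusted p of 1e-05 is the smallest these resamples can give) and Spearman's rho of 0.977. Without the 2 livers farthest from the median of Cyp4a10 r was 0.96, within DTR positive and DTR negative livers it was 0.961 and 0.983, and over the 18 livers it was 0.945. These transcripts shared 0% of their 50-base stretches. Cyp2e1 and Cyp2c29 had r of 0.936 (adjusted permutation p = 8e-05, rho 0.913), with 0.919 without the 2 farthest livers, 0.962 and 0.884 within DTR positive and DTR negative livers, and 0.878 over the 18.

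**Figure D2:**
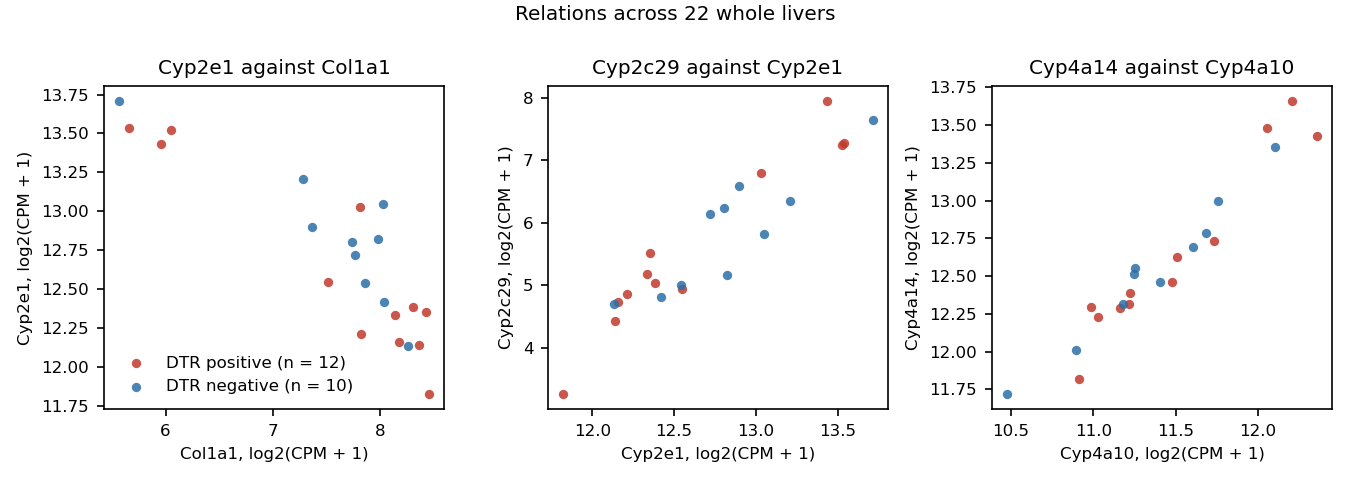
Cyp2e1 against Col1a1, Cyp2c29 against Cyp2e1 and Cyp4a14 against Cyp4a10, all on the log2(CPM + 1) scale, 1 point per liver, with DTR positive livers in red and DTR negative livers in blue. Cyp4a10 and Cyp4a14 lie close to a line (r of 0.967), and the 4 livers with low Col1a1 lie apart from the other 18.

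Because Col1a1 split the livers into 4 and 18, its relations were computed within the 18. Cyp2e1 had r of -0.732 with Col1a1 (adjusted permutation p = 0.00315, rho -0.761). Without the 2 farthest livers r was -0.619 (adjusted permutation p = 0.0428), and within DTR positive and DTR negative livers it was -0.599 (exact permutation p = 0.0877, n = 9) and -0.709 (exact permutation p = 0.0319, n = 9). Cyp2c29 had r of -0.666 with Col1a1 (adjusted permutation p = 0.0092, rho -0.659). Without the 2 farthest livers r was -0.537, which did not pass the adjustment (adjusted permutation p = 0.0817). Within DTR positive livers r was -0.428 and within DTR negative livers it was -0.827 (exact permutation p = 0.00432, n = 9). Cyp3a11 had r of 0.169 with Col1a1 (permutation p = 0.502), and Cyp1a2 had -0.474 (permutation p = 0.0478), which did not pass the adjustment. Col1a1 and Cyp4a14 had r of -0.472 (permutation p = 0.0485, adjusted p = 0.0863), with -0.751 within DTR positive livers (exact permutation p = 0.0167, n = 9) and -0.272 within DTR negative livers. Col1a1 and Cyp2b10 had -0.359 (permutation p = 0.142).

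Relations with the acute phase gene Saa1 and among members of low level turned on the 4 livers with low Col1a1. Saa1 and Cyp2e1 had r of -0.0995 over the 22 livers (permutation p = 0.661) and 0.789 over the 18 (adjusted permutation p = 0.000373). Saa1 and Cyp2c29 had -0.135 over the 22 (permutation p = 0.551) and 0.664 over the 18 (adjusted permutation p = 0.00749). Thus both members were high where Saa1 was high among the 18 livers, and this order was not seen with the 4 included. Saa1 and Cyp2b10, a CAR target, had -0.499 over the 22 (adjusted permutation p = 0.0449), -0.346 without the 2 farthest livers and 0.134 over the 18 (permutation p = 0.598). Cyp2b9 and Cyp2b10, which shared 0.547% of their 50-base stretches, had 0.587 over the 22 (adjusted permutation p = 0.0137, rho 0.425) and 0.127 over the 18 (permutation p = 0.617). The relations of Cyp2b10 with Saa1 and Cyp2b9 therefore rest on the 4 livers, which had 10.0 to 12.9 TPM of it, above the next liver at 7.16 TPM. Cyp1a1 and Cyp1a2 had 0.315 over the 22 (permutation p = 0.153) and 0.61 over the 18 (adjusted permutation p = 0.0162). Cyp1a1 had only 76 counts over the 22 livers, with 0 in the lowest, and shared 3.55% of its 50-base stretches with Cyp1a2. This relation is therefore uncertain. The other relations with Saa1 did not pass the adjustment in either set of livers, with r of -0.0396 over the 22 and 0.518 over the 18 for Cyp1a2 (adjusted permutation p = 0.0559 over the 18), -0.0254 and -0.332 for Cyp3a11, and -0.448 and 0.232 for Cyp4a14 (adjusted permutation p = 0.0835 over the 22).

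In the sorted cells of the population set the members' order was different, with a family 4 gene at the top of each group by mean TPM. Cyp4f18, known in mouse neutrophils for hydroxylation of leukotriene B4 (chr8:71988482-72009626, minus strand), was by its mean TPM the highest member in the groups of the population set other than Kupffer cells on control diet, where Cyp4f13 and Cyp4v3 were above it. It had 234 and 238 TPM in Ly6C-Lo macrophages, 297 and 305 TPM in Ly6C-Hi macrophages, 116 and 102 TPM in Tim4-Neg recruited macrophages, 64.5 and 64.0 TPM in Kupffer cells on the NASH diet, 230 and 251 TPM in blood monocytes, and 29.7 and 39.0 TPM in Kupffer cells on control diet. In whole liver it averaged 6.82 ± 3.4 TPM in DTR positive livers (SD, n = 12) and 5.46 ± 2.71 TPM in DTR negative livers (n = 10). In 1 library, Ly6C-Hi macrophage replicate 2, Cyp2e1 was above it at 322 TPM. The values of Ly6C-Lo macrophages lay within those of blood monocytes, and the other groups, ordered by level, did not overlap.

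Cyp4f16, Cyp4v3 and Cyp4f13 were the other members above 10 TPM in blood monocytes. Cyp4f16 (chr17:32536557-32551798, plus strand) had 24.5 and 48.0 TPM in Ly6C-Lo macrophages, 52.4 and 68.8 TPM in Ly6C-Hi macrophages, and 89.6 and 89.2 TPM in blood monocytes. It lay between 12.1 and 18.3 TPM in the Tim4-Neg recruited macrophages and both groups of Kupffer cells. Cyp4v3 (chr8:45305802-45333196, minus strand) was even, with 31.7 to 46.1 TPM over the 12 libraries of the population set. Cyp4f13 had 19.9 to 51.2 TPM there. With Cyp4f18 these were the 4 highest members in blood monocytes, and the next, Cyp4f17, averaged 3.46 TPM there.

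**Figure D3:**
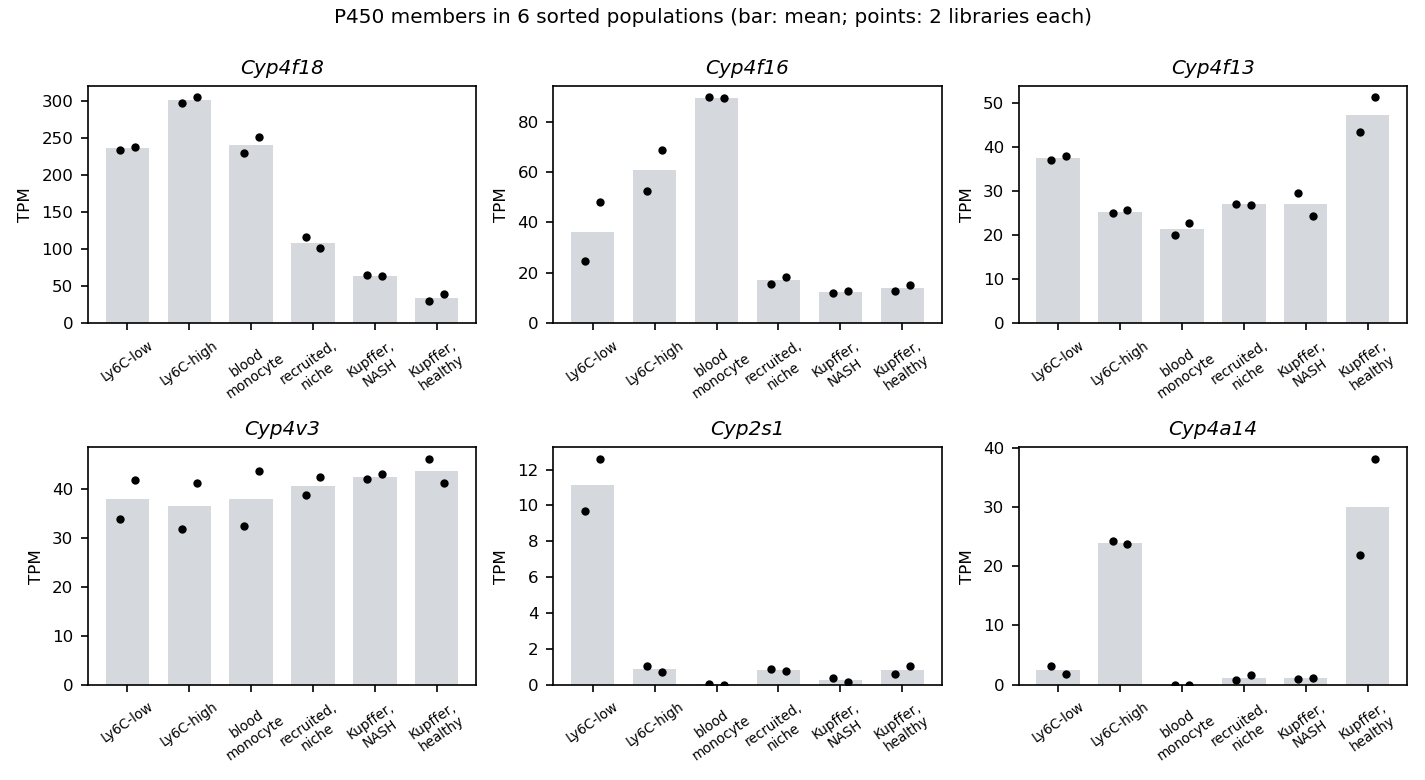
TPM of 6 members in the 12 libraries of the population set, with points for libraries and bars for the mean of 2, groups from Ly6C-low macrophages on the left to Kupffer cells on control diet on the right. Cyp4f18 lies between 29.7 and 305 TPM, Cyp4v3 between 31.7 and 46.1 TPM, and Cyp4a14 is at 0 in both blood libraries.

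Liver Ly6C-Hi macrophages, compared with Ly6C-Hi blood monocytes, had many members that blood lacked. edgeR called 35 of the 45 members tested, all higher in liver, beside 48.6% of all 14407 genes in either direction and 27.3% higher. Most of these members reached the test through liver alone and had to differ, so the count adds nothing beyond their levels. Cyp2e1 had 180 and 322 TPM in liver Ly6C-Hi macrophages and 0 counts in blood, at least 3449-fold higher if blood is set at a floor of 3 counts for the group, and at least 1310-fold and 2140-fold without blood replicates 1 and 2. Cyp4a10 had 19.7 and 19 TPM in liver cells and 0 counts in blood, at least 314-fold higher, and at least 119-fold and 195-fold without blood replicates 1 and 2. Cyp4b1 had 24.9 and 26.8 TPM in liver cells and 0 counts in blood, at least 378-fold higher, and at least 144-fold and 235-fold without those replicates. Cyp2d22 averaged 14 ± 2.44 TPM in liver cells and 0.385 ± 0.0566 TPM in blood (SD, n = 2 each), a log2 fold change of 5.15 ± 0.47 (edgeR, adjusted p = 9.87e-06).

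The members shared by both cell types did not pass: Cyp4f18 averaged 301 TPM in liver cells and 241 TPM in blood (log2 0.27 ± 0.13, edgeR, adjusted p = 0.0956), and Cyp4f16 averaged 60.6 TPM in liver cells and 89.4 TPM in blood (-0.60 ± 0.25, adjusted p = 0.062). Hepatocyte markers and those of several other cell types moved with the higher members. The 10 hepatocyte markers summed to 1135 and 3090 TPM in liver Ly6C-Hi macrophages. In blood they summed to at most 0.012 TPM, and 9 of 10 were at 0 counts. Endothelial markers were higher in liver for 6 of 6 (270 TPM summed on average, against 0.414 TPM in blood). Stellate and fibroblast markers were higher for 6 of 7 and T and B cell markers for 4 of 4. Macrophage and monocyte markers were higher for 3 of 6 and erythroid markers for 0 of 3. The part of these cell types in the members' values was not tested. Per 100 TPM of Alb, Cyp2e1 had 28.7 and 17.8 TPM in liver Ly6C-Hi macrophages, against 9.93 to 13.1 TPM in DTR positive and 9.73 to 17.8 TPM in DTR negative whole livers.

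Ly6C-Lo macrophages, compared with Ly6C-Hi macrophages, had lower levels of most liver-type members and a higher level of Cyp2s1. edgeR called 34 of 45 members, 2 higher and 32 lower, beside 25.7% of all genes (11.6% higher and 14% lower). Members that reached the test through the Ly6C-Hi libraries alone could only be called lower, so the count adds nothing beyond their levels. This comparison shares the Ly6C-Hi libraries with the one against blood. Cyp2s1, a member best known outside liver (chr7:25802476-25816530, minus strand), had 9.67 and 12.6 TPM in Ly6C-Lo macrophages, against 1.02 and 0.689 TPM in Ly6C-Hi macrophages. It rose by 3.65 ± 0.40 on the log2 scale (adjusted p = 0.000122), and no library of another sorted group exceeded 1.05 TPM. Cyp4f13 had 37.1 and 37.9 TPM in Ly6C-Lo macrophages, against 25.0 and 25.6 TPM in Ly6C-Hi macrophages (0.51 ± 0.13, adjusted p = 0.0146). That call was lost without Ly6C-Lo replicate 1 or either Ly6C-Hi replicate, at an adjusted p of 0.0659 to 0.0684. Cyp4f18 had 234 and 238 TPM in Ly6C-Lo macrophages, against 297 and 305 TPM in Ly6C-Hi macrophages (-0.40 ± 0.13, adjusted p = 0.0386), a call lost without any 1 of the 4 libraries (adjusted p of 0.0903 to 0.183). Neutrophil markers were lower in Ly6C-Lo macrophages for 5 of 5, at 3.91 and 10.6 TPM summed against 72.1 and 84.9 TPM. Their part was not tested.

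Among the lower members, Cyp4a14 had 3.23 and 1.87 TPM in Ly6C-Lo macrophages, against 24.2 and 23.7 TPM in Ly6C-Hi macrophages (log2 -3.25 ± 0.36, edgeR, adjusted p = 0.000217). Cyp4a10 had 2.97 and 2.15 TPM in Ly6C-Lo macrophages, against 19.7 and 19 TPM in Ly6C-Hi macrophages (-2.95 ± 0.40, adjusted p = 0.000641). Cyp2d9 had 3.41 and 3.49 TPM in Ly6C-Lo macrophages, against 24.8 and 31.1 TPM in Ly6C-Hi macrophages (-3.07 ± 0.46, adjusted p = 0.00116). The groups did not overlap for these genes. Cyp2c50 averaged 0.633 TPM in Ly6C-Lo macrophages and 8.01 TPM in Ly6C-Hi macrophages (-3.65 ± 0.58, adjusted p = 0.00171), with -4.44 without Ly6C-Lo replicate 1. The 10 hepatocyte markers were lower as well, at 119 and 275 TPM summed in Ly6C-Lo macrophages, against 1135 and 3090 TPM in Ly6C-Hi macrophages, and their part was not tested. The count of called members was 7 without Ly6C-Hi replicate 2 and 7 without Ly6C-Lo replicate 1, and Cyp2s1, Cyp4a14, Cyp4a10 and Cyp2d9 kept their calls in every such run. Of all genes, 1633 of 14792 were called without Ly6C-Hi replicate 2 and 1619 of 14929 without Ly6C-Lo replicate 1.

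Tim4-Neg recruited macrophages, compared with Tim4-Pos Kupffer cells on the NASH diet, had 0 of 45 members called by edgeR, beside 0.534% of all genes (0.333% higher and 0.201% lower). The 45 passed a filter run over all groups of the population set, and with these groups compared alone 26 members were tested. At an unadjusted p under 0.05 there were 2 of the 45. DESeq2 and limma each called 1 member, beside 269 and 72 of 14407 genes. That member was Cyp4f18, at 116 and 102 TPM in recruited macrophages, against 64.5 and 64.0 TPM in Kupffer cells, with a log2 fold change of 0.64 ± 0.13 (adjusted p = 0.0607). The groups did not overlap for this gene. Its adjusted p was 0.00115 with DESeq2, 0.0443 with limma on log2(TPM + 1), 0.0127 with no filter and 0.0404 with a replicate block. Kupffer cell markers were lower in recruited macrophages for 6 of 6, at 6883 and 8089 TPM summed against 11378 and 13324 TPM in Kupffer cells. Neutrophil markers were higher for 5 of 5, at 19.6 and 23 TPM summed against 16.3 and 16.8 TPM in Kupffer cells. T and B cell markers were higher for 4 of 4. The part of these cell types was not tested. Cyp2s1 averaged 0.829 TPM in recruited macrophages and 0.268 TPM in Kupffer cells (1.52 ± 0.48, adjusted p = 0.281).

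Kupffer cells on the NASH diet were compared with Kupffer cells on control diet in both sets. In the population set edgeR called 7 of 45 members, 2 higher and 5 lower, beside 20.7% of all genes (11.2% higher and 9.56% lower), and the median log2 fold change was -0.60 for the members and -0.00 for all genes. The filter ran over all groups of the set, so some members were near 0 in both groups compared. With the NASH and control groups compared alone 28 members were tested, with a median of -1.04. Cyp4f18 rose, with 64.5 and 64.0 TPM on the NASH diet, against 29.7 and 39.0 TPM on control diet (log2 1.12 ± 0.13, adjusted p = 0.000269). Kupffer cell markers were lower for 5 of 6, at 11378 and 13324 TPM summed on the NASH diet against 15741 and 19974 TPM on control diet. Neutrophil markers were higher for 5 of 5 (16.3 and 16.8 TPM on the NASH diet against 7.27 and 11 TPM on control diet). Cholangiocyte markers (Krt7, Krt19, Epcam, Sox9 and Spp1) were higher for 4 of 5, at 54.4 and 164 against 1.02 and 1.16 TPM. Spp1 can also come from macrophages, so this sum is not specific to cholangiocytes. The part of these markers' cell types was not tested. Cyp4f39, a skin enzyme of very long fatty acids and the ortholog of human CYP4F22, had 16 counts on the NASH diet and 0 on control diet. It was at least 5.92-fold higher (adjusted p = 0.0448), a call lost without any 1 of these 4 libraries (adjusted p of 0.0821 to 0.203), with a bound of 2.7-fold without control replicate 1, 3.23-fold without control replicate 2 and 4.02-fold without NASH replicate 2. This comparison shares the NASH Kupffer cells with the one against recruited macrophages.

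Of the 4 fatty acid omega-hydroxylases listed as PPAR alpha targets, 2 fell in this set, and Cyp4a31 (adjusted p = 0.0741) and Cyp4a32 (0.0679) did not pass. Cyp4a14 had 0.979 and 1.19 TPM on the NASH diet, against 21.8 and 38.1 TPM on control diet (log2 -4.55 ± 0.40, edgeR, adjusted p = 6.22e-05). Cyp4a10 had 0.677 and 0.979 TPM on the NASH diet, against 10.9 and 15.6 TPM on control diet (-3.76 ± 0.45, adjusted p = 0.000422). The groups did not overlap, and both calls held without each library in turn. Cyp4b1 had 3.12 and 4.28 TPM on the NASH diet, against 13.4 and 10.8 TPM on control diet (-1.50 ± 0.23, adjusted p = 0.00197), and Cyp4f13 had 29.6 and 24.4 TPM on the NASH diet, against 43.4 and 51.2 TPM on control diet (-0.60 ± 0.13, adjusted p = 0.00903). Cyp2d9, the fifth lower member, averaged 1.75 TPM on the NASH diet and 8.55 TPM on control diet (-2.03 ± 0.48, adjusted p = 0.0165). Its value was -1.36 without control replicate 2 and -2.89 without NASH replicate 2, and its call was lost without control replicate 2 or NASH replicate 1. Without control replicate 2 the count of called members was 4, beside 1523 of 14970 genes. Cyp4f13 lost its call without control replicate 2 (adjusted p = 0.0619) or NASH replicate 2 (0.085).

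Hepatocyte markers were also lower on the NASH diet in this set, 10 of 10, at 85.2 and 268 TPM summed against 478 and 739 TPM on control diet. Endothelial markers were lower for 6 of 6, at 121 to 124 TPM on the NASH diet against 212 to 217 TPM on control diet. Per 100 TPM of Alb, Cyp4a14 had 2.22 and 0.835 TPM on the NASH diet, against 8.07 and 10.1 TPM on control diet, so it was lower relative to Alb as well. Cyp2e1 had 21.3 and 14.2 TPM per 100 TPM of Alb on the NASH diet, against 6.03 and 11.6 TPM on control diet. The part of the other cell types in the members' values was not tested.

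**Figure D4:**
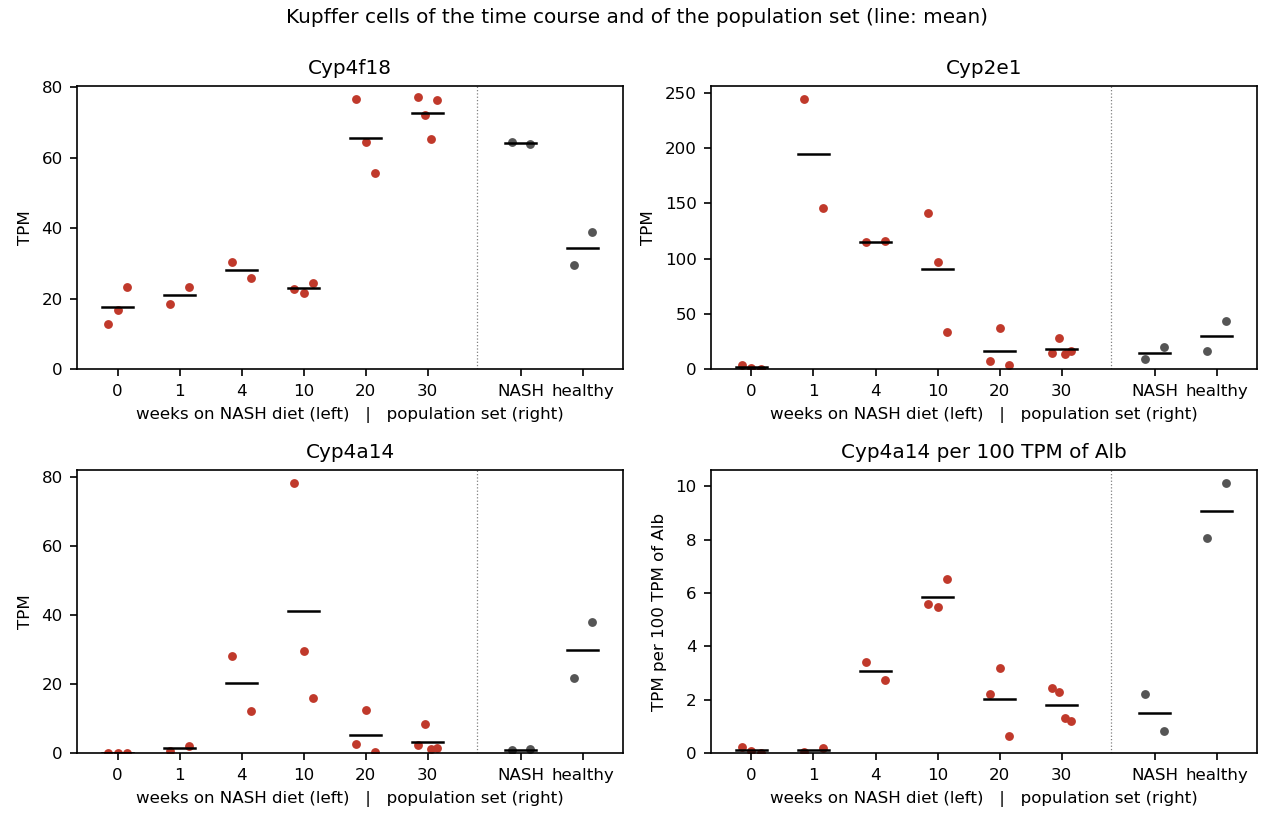
TPM of Cyp4f18, Cyp2e1 and Cyp4a14, and Cyp4a14 per 100 TPM of Alb, in Kupffer cells over 0, 1, 4, 10, 20 and 30 weeks of NASH diet and in both Kupffer cell groups of the population set, with points for libraries and lines for means. Cyp4f18 lies at 55.7 to 77.1 TPM at 20 and 30 weeks and at 12.9 to 30.4 TPM at earlier times.

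In the time course Cyp4f18 was higher at 20 and 30 weeks than before, while Cyp2e1 and Cyp4a14 had their highest means at earlier times. Cyp4f18 averaged 17.7, 20.9, 28.2, 23.0, 65.5 and 72.7 TPM at 0, 1, 4, 10, 20 and 30 weeks. Its libraries at 30 weeks had 77.1, 72.1, 65.3 and 76.3 TPM, against 12.9, 16.9 and 23.3 TPM at 0 weeks (log2 2.33 ± 0.20, edgeR, adjusted p = 5.32e-07), with no overlap. Kupffer cell markers were lower at 30 weeks for 6 of 6, at 8531 to 11135 TPM summed against 15554 to 18182 TPM at 0 weeks, and at 20 weeks they summed to 9404 to 12173 TPM. Cholangiocyte markers, with Spp1 among them, were higher for 5 of 5, at 85.3 to 240 TPM at 30 weeks against 1.52 to 14.3 TPM at 0 weeks. Neutrophil markers were lower for 4 of 5. The part of these cell types was not tested. Cyp2e1 averaged 1.89, 195, 115, 90.7, 16.4 and 18.3 TPM over the 6 times, and Cyp4a14 averaged 0.08, 1.42, 20.3, 41.3, 5.3 and 3.39 TPM. By these means Cyp2e1 was highest at 1 week and Cyp4a14 at 10 weeks, but libraries of neighbouring times lay close or overlapped. Cyp2e1 had 244 and 146 TPM at 1 week and up to 141 TPM at 10 weeks. Cyp4a14 had 78.2, 29.7 and 15.9 TPM at 10 weeks, against 28.2 and 12.4 TPM at 4 weeks. By mean TPM Cyp2e1 was the highest member at 1, 4 and 10 weeks, Cyp4v3 was at 0 weeks (45.4 TPM), and Cyp4f18 was at 20 and 30 weeks. Hepatocyte markers summed to 38 to 126, 2278 to 3730, 1323 to 1404, 449 to 2329, 103 to 598 and 159 to 609 TPM over the 6 times, and their part was not tested. Per 100 TPM of Alb, Cyp4a14 averaged 0.118, 0.125, 3.08, 5.86, 2.03 and 1.82 TPM, and Cyp2e1 averaged 3.78, 16, 19.8, 13.9, 7.24 and 12.4 TPM.

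At 30 weeks, compared with 0 weeks, edgeR called 15 of 45 members, 13 higher and 2 lower, beside 30.5% of all genes (15.5% higher and 15% lower). The filter ran over all times of the course, and with the 0 and 30 week groups compared alone 30 members were tested. Members near 0 counts at 0 weeks could only be called higher, such as Cyp4f39 (0 counts), Cyp2a12 (1) and Cyp4a10 (3). Limma on log2(TPM + 1) called 7, beside 5834 of 14552 genes. Cyp2e1 had 14.6, 28.7, 13.5 and 16.4 TPM at 30 weeks, against 3.8, 1.35 and 0.525 TPM at 0 weeks (log2 3.58 ± 0.74, adjusted p = 0.00182), and 4.55 without 0 weeks replicate 1. Cyp4a14 had 2.35, 8.37, 1.32 and 1.53 TPM at 30 weeks, against 0.205, 0.035 and 0 TPM at 0 weeks (5.58 ± 1.38, adjusted p = 0.00593), and 4.60 without 30 weeks replicate 2. Of its 8 counts at 0 weeks 7 lay in replicate 1, without which the ratio of counts was 218 (95% interval 38.9 to 8620), against 44.8 (22.6 to 104) with it. Cyp4a10 had 235 counts at 30 weeks and 3 at 0 weeks, a ratio of 51.2 (95% interval 17.3 to 250, counting error only), with 93.3 (16.6 to 3699) without 0 weeks replicate 1 and 33.1 (11 to 163) without 30 weeks replicate 2. Cyp4f39 had 116 counts at 30 weeks and 0 at 0 weeks, at least 25.3-fold higher, with bounds of 15.3-fold to 28.3-fold leaving out 1 library at a time, the lowest without 0 weeks replicate 1.

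The 2 lower members at 30 weeks were Cyp4b1 and Cyp2r1. Cyp4b1 had 3.33, 5.35, 5.87 and 5.61 TPM at 30 weeks, against 47.1, 17.7 and 17.5 TPM at 0 weeks (log2 -2.10 ± 0.45, edgeR, adjusted p = 0.00222), without overlap. Endothelial markers, 6 of 6, were lower at 30 weeks too, at 110 to 154 TPM summed against 292 to 674 TPM at 0 weeks, and their part was not tested. Cyp2r1, a vitamin D 25-hydroxylase, averaged 1.47 ± 0.319 TPM at 30 weeks (SD, n = 4) and 4.35 ± 0.832 TPM at 0 weeks (n = 3), with -1.25 ± 0.37 (adjusted p = 0.018), a call lost without 0 weeks replicate 3 (adjusted p = 0.064) or 30 weeks replicate 4 (0.0551). The other higher members were Cyp1b1, Cyp2a12, Cyp2d26, Cyp2d9, Cyp2j5, Cyp4f13, Cyp4f15 and Cyp4v3. Hepatocyte markers, 10 of 10, were higher at 30 weeks.

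The diet change differed between the sets for 9 of the 36 members tested in both, by an interaction term in edgeR, beside 4.65% of 14042 genes. This test was added after the values were seen, so its p-values describe a difference already noticed in these data. For Cyp4a10 the change in the population set minus that at 30 weeks was -9.40 ± 0.98 on the log2 scale (adjusted p = 0.00179), and the call held with each of the 11 libraries left out, though the gene had 3 counts in all at 0 weeks. For Cyp4a14 it was -10.11 ± 1.28 (adjusted p = 0.0049), a call lost without NASH replicate 1 of the population set (adjusted p = 0.0667). These genes fell on the NASH diet in the population set and rose at 30 weeks, and hepatocyte markers also moved in opposite directions, 10 of 10 lower and 10 of 10 higher. The control groups lay far apart and the NASH groups close together. Per 100 TPM of Alb, Cyp4a14 averaged 9.11 TPM in control cells of the population set and 0.118 TPM at 0 weeks. On the NASH diet it averaged 1.53 TPM in the population set and 1.82 TPM at 30 weeks. Cyp4a10 averaged 4.09 and 0.0692 TPM in the same control groups, and 1.11 and 1.06 TPM in the NASH groups. For Cyp4f18, higher on the diet in both sets, the difference was -1.19 (adjusted p = 0.0477), and its call held in 3 of 11 such runs.

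**Figure D5:**
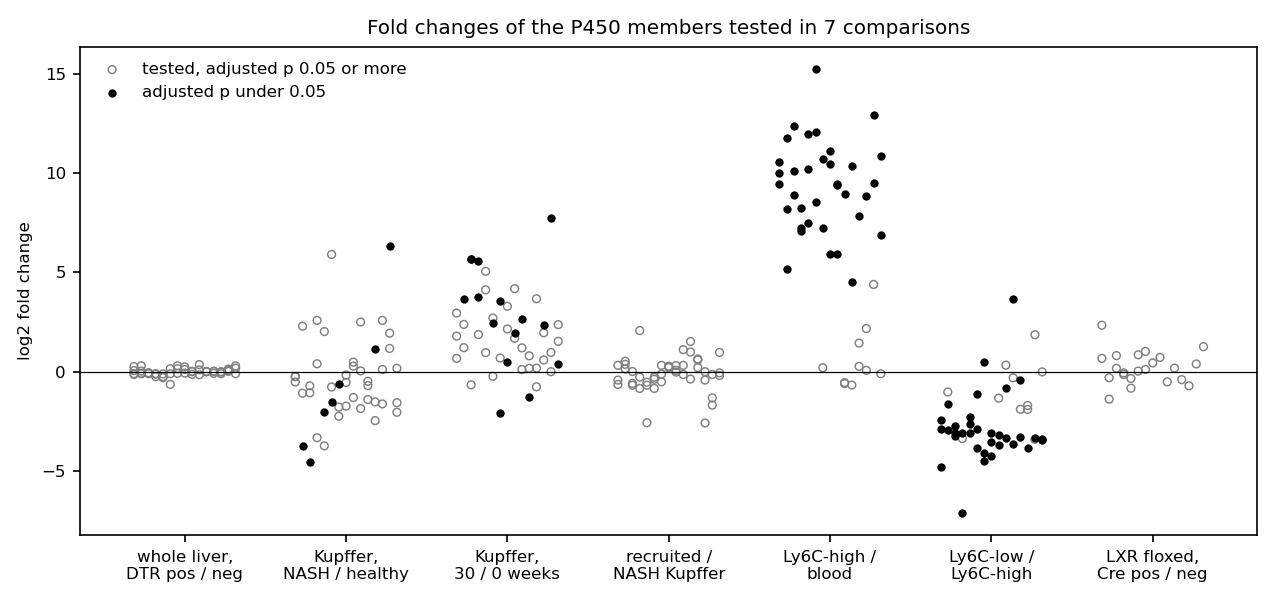
Fitted log2 fold changes of every member tested in 7 comparisons, 1 point per member, with filled points for an adjusted p under 0.05 by edgeR; a fitted value against a group at 0 counts depends on the prior count. Whole liver has 0 filled points, and Ly6C-high macrophages over blood have 35, all above 0.

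Partners and regulators of the P450 system were counted in the sorted cells as well. By edgeR, 14 of 30 tested rose and 3 fell in Ly6C-Hi macrophages over blood, beside 27.3% of all genes higher and 21.3% lower. In Ly6C-Lo over Ly6C-Hi macrophages 0 rose and 9 of 30 fell, beside 11.6% of all genes higher and 14% lower. In NASH over healthy Kupffer cells of the population set 3 rose and 6 of 30 fell, beside 11.2% and 9.56% of all genes. At 30 weeks over 0 weeks 9 rose and 3 of 31 fell, beside 15.5% and 15% of all genes. In these 4 comparisons the 10 hepatocyte markers averaged 2113 TPM summed in Ly6C-Hi macrophages against 0.006 in blood, 197 in Ly6C-Lo against 2113 in Ly6C-Hi macrophages, 176 in NASH against 608 in healthy Kupffer cells, and 292 at 30 weeks against 75 at 0 weeks, and their part was not tested. None passed among 30 in recruited macrophages over Kupffer cells (5 at an unadjusted p under 0.05) or among 24 in the LXR set (2).

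Recruited macrophages of LXR-floxed mice were compared by Cre status. Clec4f-Cre positive samples, compared with Cre negative samples, had 0 of 22 tested members called by edgeR, beside 0.209% of 11480 genes. At an unadjusted p under 0.05 there were 2 members, and DESeq2 called 1 and limma 0, beside 232 of 11475 and 2 of 11480 genes. Cyp4a14 had 10.6, 23.4 and 8.54 TPM in Cre positive samples, against 4.24, 3.08 and 1.24 TPM in Cre negative samples, without overlap. Its log2 fold change was 2.34 ± 0.55 (p = 0.00152, adjusted p = 0.137), and 1.70 without Cre positive replicate 2. Per 100 TPM of Alb it had 5.95, 6.05 and 3.31 TPM in Cre positive samples and 2.16, 1.82 and 0.324 TPM in Cre negative samples. Cyp4f18 had 155, 81.2 and 140 TPM in Cre positive samples, against 66.7, 54.1 and 83.6 TPM in Cre negative samples (0.85 ± 0.25, p = 0.00734, adjusted p = 0.267), and here the groups overlapped. These libraries held the fewest counts of the series, which limits the members that could be tested.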

How the data were processed

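Counts and TPM were deposited by the authors for 40458 RefSeq transcripts of mm10 (GRCm38), made with HOMER over exons, per the file headers. STAR, HOMER and DESeq2 were used, per the submitters' processing notes, which give no versions. Strand handling, trimming and filters are not given in the sources used here. Per the labels' protocols, livers were digested with flavopiridol present and 2 spins at low speed took out hepatocytes before the sort. Isoforms share reads in this counting, so 1 transcript stood for each symbol.

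The test on the deposited counts was edgeR's (version 4.0.16, under R 4.3.3), after filterByExpr (10 and 15 as lowest count and total) and TMM scaling (quasi-likelihood, two-sided, Benjamini-Hochberg over all genes tested, called at adjusted p under 0.05). The population set, time course, LXR set and whole liver were fitted apart. DESeq2 1.42.0 and limma 3.58.1 on log2(TPM + 1) were alternatives, as were other scaling, no filter, the groups compared alone, a replicate block and each library left out. Levels are deposited TPM, as mean ± SD, and levels of different sets were scaled apart only by library. The main edgeR test, for some of the comparisons, and the permutation test of the relations were tried on simulated data. The interaction term and the alternatives were not.

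Named members were the 20 highest in whole liver, those of the 16 relations, the 8 highest in liver macrophages and 4 highest in blood of the population set, and up to 5 called members by smallest adjusted p in each sorted comparison. The members and lists were chosen with earlier results of these data known. By correlation of deviations from the group mean, same-numbered replicates matched best in some comparisons of the population set and not in others. In whole liver most did not. With 2 libraries a group this cannot decide whether replicates were paired, and a replicate block was run as an alternative. Chi-square per degree of freedom between replicates' counts ran from 5.03 to 79.9 over 140 pairs, so no library was a duplicate. Intervals (95%, exact) and floors cover counting error only.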

Additional observations from a re-analysis of the deposited data

Results flagged for a closer look

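In groups of 4 to 10 samples, which leaves out the 12 DTR positive livers, 1 library lay far from the others for 8 of 38 gene and group pairs. Dixon's test would flag about 5% of independent pairs by chance. These pairs share libraries and are not independent, so the count cannot be set against that share. Among DTR negative whole livers, Cyp2c23 was highest in replicate 1 at 153 TPM (next 115 TPM), Cyp2c29 in replicate 2 at 118 TPM (next 63.2 TPM), Cyp2j5 in replicate 2 at 164 TPM (next 126 TPM) and Cyp2c67 in replicate 10 at 90.4 TPM (next 74.7 TPM). Replicate 2 is also the DTR negative liver with the lowest Col1a1, at 8.27 TPM. Among Kupffer cells at 30 weeks, replicate 2 was highest for Cyp4a14 at 8.37 TPM (next 2.35 TPM), Cyp4a10 at 3.6 TPM (next 1.24 TPM), Cyp2d9 at 2.7 TPM (next 1.34 TPM) and Cyp4f13 at 34.6 TPM (next 28.2 TPM). The same library had 365 TPM of Alb, against 95.7 to 126 TPM in the other 3.

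The change with NASH diet in Kupffer cells differed between the population set and 30 weeks for 9 of 36 members, by an interaction term in edgeR. Of all 14042 genes tested, 4.65% differed. The term was added after the values were seen. The difference, population set minus 30 weeks on the log2 scale, was -10.11 for Cyp4a14, -9.40 for Cyp4a10, -6.72 for Cyp2a12, -4.49 for Cyp2d9, -4.45 for Cyp2d26, -4.34 for Cyp2e1, -3.67 for Cyp2j5, -1.19 for Cyp4f18 and -1.07 for Cyp4f13. With each of the 11 libraries left out in turn, the call held in 11 runs for Cyp4a10 and 10 for Cyp4a14. It held in 9 runs for Cyp2a12, Cyp2d9, Cyp2d26 and Cyp2e1, 8 for Cyp4f13, 4 for Cyp2j5 and 3 for Cyp4f18. Cyp2a12 had 1 count in all at 0 weeks. For Cyp4a14 and Cyp4a10 the control groups of the sets lay farther apart than the NASH groups. The sets differ in more than diet time, and their batch and set cannot be told apart.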

How the results depend on the processing

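Of the counts of called members, edgeR's main value changed by over 1.5 times under these settings. In NASH over healthy Kupffer cells 13 of 63 tested members were called with no filter, beside 3297 of 19168 genes. With a replicate block 13 of 45 were called, beside 3497 of 14407 genes. The main fit called 7 of 45, beside 2988 of 14407 genes. In recruited macrophages over Kupffer cells 1 was called with no filter, DESeq2, limma on log2(TPM + 1) or a replicate block, against 0 in the main fit. Of all genes these settings called 257 (of 19168 tested), 269, 72 and 152 in that order (of 14407 tested), against 77. At 30 weeks 7 of 45 were called by limma, beside 5834 of 14552 genes, against 15 in the main fit, beside 4437 genes. In the LXR set 1 was called with no filter or DESeq2, against 0 in the main fit. All genes called were 273 of 17955, 232 of 11475 and 24 of 11480 in these fits. With a replicate block the counts were otherwise 0 in whole liver, 36 against blood, 38 in Ly6C-Lo over Ly6C-Hi macrophages, 20 at 30 weeks and 0 in the LXR set. All genes called with the block were 0, 7225, 4257, 3682 and 112 in that order. Leaving out 1 library gave 4 to 6 in NASH over healthy Kupffer cells, 7 to 32 in Ly6C-Lo over Ly6C-Hi macrophages, 10 to 16 at 30 weeks, 35 to 37 against blood, and 0 to 0 in whole liver. All genes called in these runs were 846 to 2031, 1619 to 3051, 3417 to 3764, 5450 to 5793 and 0 in that order. Without the 4 livers with low Col1a1, a choice made after seeing the data, 0 members were called in whole liver, 13 of 47 had an unadjusted p under 0.05 (1549 of 12702 genes), and Cyp4a14 (-0.12) and Cyp4a10 (-0.05) reversed. The cause of these changes was not tested. Of 16 relations, 6 passed with Pearson's r, 4 with Spearman's rho, 4 without the 2 farthest livers, 7 on TPM, 5 with a pseudocount of 0.1 and 7 without those 4 livers. Without them r turned to 0.789 for Saa1 and Cyp2e1, 0.664 for Saa1 and Cyp2c29 and 0.134 for Saa1 and Cyp2b10. A fit with Xist as a covariate was not run, since Xist was near 0 in all livers. With 2 libraries a group, and as few as 2.32 M counts (M for 1e6) in the LXR set, low members cannot be resolved.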
